A study of Mus musculus with 14 samples.

Results

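The nuclear genes for the subunits of mitochondrial oxidative phosphorylation were described in sorted epithelial cells of mouse dorsal skin. Members were all genes whose names began with Ndufa, Ndufb, Ndufc, Ndufs, Ndufv, Cox4 to Cox8, Atp5 or Uqcr, or were Sdha, Sdhb, Sdhc or Sdhd, and that had a transcript of at least 300 nt. Of 22033 genes in the 12 libraries used, 90 bore such a name and 89 were long enough. The filter on low values (at least 1 FPKM in at least 2 libraries) was passed by 84 of the 89, and by 12468 of all genes. FPKM corrects the fragment count of a transcript for its length and for library size.

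Oxidative phosphorylation is the last stage of respiration. Complex I and complex II take electrons from NADH and succinate, complex III passes them to cytochrome c, complex IV hands them to oxygen, and complex V (ATP synthase) makes ATP from the proton gradient that complexes I, III and IV build. Most subunits are encoded in the nucleus and a few core ones in mitochondrial DNA, which the deposited annotation did not include. Hair follicle stem cells are known for making more lactate by glycolysis than other epidermal cells do.

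All animals were wild type C57BL/6 mice, aged 2 or 24 months, and the cells were isolated by flow cytometry. Each of 6 groups held 2 libraries: bulge stem cells of resting (telogen) skin, labelled tBSC, interfollicular epidermis of telogen skin, labelled Epi, and activated bulge stem cells of depilated skin, labelled aBSC, each at both ages. Young and aged cells were set side by side within each population, and populations within each age. The labels do not say whether the 2 libraries of a group came from separate animals, and p-values here cover the spread of libraries, which may be technical. An exact permutation test of 2 libraries against 2 cannot give a p below 0.333. Differences were therefore tested with limma over all 12 libraries, where all groups share the spread, with Benjamini-Hochberg adjustment over 12468 genes. A gene was called at an adjusted p under 0.05.

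By the complex they belong to, the 89 genes comprised 36 of complex I, 4 of complex II, 8 of complex III, 20 of complex IV and 14 of complex V. The other 7 carried a matching name without being subunits. These were the complex I assembly factors Ndufaf1, Ndufaf2, Ndufaf3 and Ndufaf4, the protein Cox4nb (also called Emc8) of an endoplasmic reticulum complex, and Atp5s and its relative Atp5sl. Ndufa4 and its homologue Ndufa4l2 were placed in complex IV despite their names, because Ndufa4 is a subunit of cytochrome c oxidase. The members lay on 18 autosomes and the X chromosome, which held 3 (Ndufa1, Ndufb11 and Cox7b). The only matching name under the length limit was Atp5k, a small ATP synthase subunit of 292 nt, at 143 to 339 FPKM. Just above the limit were Ndufa3 with 349 nt at 148 to 301 FPKM, Cox8b with 363 nt at 0 to 0.162 FPKM and Cox7a1 with 366 nt at 0.158 to 2.54 FPKM.

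Covered sequence was 1242 to 2532 megabases per library. In 8 marker genes of the bulge, the summed level was 15871 to 18114 FPKM in telogen bulge, 2894 to 5809 in epidermis and 3047 to 3696 in activated bulge. Most of it was Krt15 (13529 to 15755, 2874 to 5790 and 2369 to 3026). Cd34, the surface marker of bulge stem cells, lay at 945 to 1303, 0.375 to 5.75 and 59.0 to 91.9 FPKM in these populations. Every gene of the list but Krt15 was higher in all activated bulge libraries than in all epidermal ones. Lhx2 lay at 113 to 195 against 0.815 to 2.47 FPKM, and Nfatc1 at 44.5 to 89.2 against 9.42 to 11.2. Krt5 and Krt14, the keratins of basal cells, were each listed at 0 in 3 of 4 epidermal libraries, and Krt5 in all 4 telogen bulge ones, beside 2918 to 11836 FPKM in others, so they could not be used as a check. The activated libraries held Xist (15.8 to 141 FPKM) and nearly none of the Y-linked Eif2s3y (0.0374 to 0.137), whereas the other 8 held 0 to 0.28 and 18.0 to 48.6 FPKM. Activation and this split cannot be told apart. Some markers of other cells moved with the populations. The T cell list (4 genes) summed to 55.7 to 184 FPKM in epidermis, nearly all of it Thy1, and to 8.70 to 26.5 elsewhere. Fibroblast markers (6 genes) summed to 0.121 to 0.629 FPKM in epidermis, 15.8 to 17.3 in telogen bulge and 7.01 to 427 in activated bulge, where replicate 1 at 2 months was highest. Melanocyte markers (5 genes) summed to 17.7 to 55.8 in telogen bulge and 2.31 to 10.01 elsewhere, and sebaceous markers (5 genes) to 191 to 211 in telogen bulge, 62.2 to 137 in epidermis and 105 to 454 in activated bulge. Myeloid markers (6 genes) overlapped between populations (10.3 to 75.0), as did those of differentiated epidermis (6 genes, 980 to 10886), and adipocyte and endothelial lists stayed at or below 4.86. The part of these cells in the results was not tested. In bulk RNA, fewer cells of a type and less RNA per cell cannot be told apart either.

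The RefSeq promoter table (build GRCm38.p6) held 73 of the 89 members, with 79 windows. The 250 bases before the start are printed for 5 genes on which the results turn: Cox6b2 and Ndufa11, which were higher in telogen bulge than in epidermis, Ndufb4 and Ndufa6, accessory subunits of complex I that were lower in activated than in telogen bulge on at least 1 scale, and Cox7a2l, a supercomplex protein with the same order of levels. Capitals mark matches on either strand to TGCGCA or to the longer motif of NRF1, an activator of respiratory genes. The NRF1 motif holds part of TGCGCA, so matches can share bases. The windows lie at chr7:4753095-4753344 (minus strand), chr17:56717512-56717761 (plus), chr16:37654369-37654618 (minus), chr15:82354292-82354541 (minus) and chr17:83514334-83514583 (minus).
Cox6b2: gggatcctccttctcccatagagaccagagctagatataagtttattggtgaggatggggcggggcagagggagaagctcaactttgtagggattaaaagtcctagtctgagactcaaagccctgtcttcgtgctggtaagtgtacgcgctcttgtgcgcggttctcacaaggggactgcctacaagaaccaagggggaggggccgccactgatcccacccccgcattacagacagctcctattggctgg
Ndufa11: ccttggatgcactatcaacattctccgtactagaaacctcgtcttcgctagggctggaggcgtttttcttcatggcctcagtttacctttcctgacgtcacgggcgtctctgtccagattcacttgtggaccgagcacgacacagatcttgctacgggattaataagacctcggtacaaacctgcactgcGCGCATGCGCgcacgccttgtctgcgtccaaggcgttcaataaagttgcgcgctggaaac
Ndufb4: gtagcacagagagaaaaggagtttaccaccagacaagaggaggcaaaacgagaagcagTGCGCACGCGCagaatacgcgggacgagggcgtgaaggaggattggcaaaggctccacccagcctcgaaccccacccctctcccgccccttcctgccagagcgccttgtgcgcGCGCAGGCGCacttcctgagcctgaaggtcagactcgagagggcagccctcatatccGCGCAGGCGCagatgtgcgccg
Ndufa6: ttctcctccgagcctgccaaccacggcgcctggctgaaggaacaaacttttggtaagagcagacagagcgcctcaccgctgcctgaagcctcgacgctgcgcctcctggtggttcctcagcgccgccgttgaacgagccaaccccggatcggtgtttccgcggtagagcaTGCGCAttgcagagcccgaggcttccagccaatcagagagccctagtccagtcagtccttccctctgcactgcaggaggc
Cox7a2l: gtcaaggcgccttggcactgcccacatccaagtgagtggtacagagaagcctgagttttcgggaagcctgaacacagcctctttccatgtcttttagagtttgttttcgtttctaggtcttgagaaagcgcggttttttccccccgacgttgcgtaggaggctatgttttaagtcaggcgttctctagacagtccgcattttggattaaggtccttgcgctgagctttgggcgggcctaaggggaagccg

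Ndufb4 held 3 separate matches to the NRF1 motif and 1 to TGCGCA, which shares bases with the first of them, and Ndufa11 held 1 to the NRF1 motif. Ndufa6 held 1 to TGCGCA. The windows of Cox6b2 and Cox7a2l held neither in these 250 bases. TGCGCA, which reads the same on both strands, was found in 16 of 79 member windows (20.3%) and in 6.43% of all 32851 windows of this length. The NRF1 motif was found in 14 of 79 (17.7%) against 3.74%. CCGGAAG, a form of the motif of ETS factors such as GABP, was found in 13 of 79 (16.5%) against 6.91%, and in none of the 5 printed windows. These are matches of letters and show no binding.

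The genes were among the abundant transcripts of every population. The 84 tested members summed to 8251 to 19518 FPKM per library, 2.16% to 3.03% of all FPKM, and 83 of them had at least 1 FPKM in all 12 libraries. Their longest transcripts had a median of 715.5 nt, against 2719 nt for all tested genes. The most abundant genes kept their places among the members. Cox4i1, the common form of a regulatory subunit of complex IV, had the highest mean (809 FPKM) and ranked 1 to 2 of 84 in every library. Next came Atp5b, the catalytic beta subunit of ATP synthase (634 FPKM, ranks 1 to 5), and Atp5e, a subunit of its central stalk (592 FPKM, ranks 2 to 5). Ranks of others moved more, most of all that of Ndufa4l2 (1 to 77), then Cox5a (30 to 62) and Ndufb4 (42 to 71).

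Median levels of the subunits were lowest in complexes I and II and highest in complex V in the telogen bulge. In telogen bulge the medians were 108 to 120 FPKM for complex I, 126 to 135 for complex II, 222 to 247 for complex III, 188 to 229 for complex IV and 351 to 370 for complex V. Complex I ranged from Ndufb9, an accessory subunit, with a mean of 265 FPKM over 12 libraries, to Ndufab1, the mitochondrial acyl carrier protein, with 29.6. In complex II the ends were Sdhc, a membrane anchor, at 138 and Sdha, the flavoprotein that oxidises succinate, at 61.7. In complex III they were Uqcrh, the hinge protein, at 439 and Uqcrfs1, the Rieske iron-sulphur protein, at 90.2. In complex IV they were Cox4i1 and Cox7a1, a muscle form, at 1.06, and in complex V Atp5b and Atp5g1, a gene for the c ring, at 113. The non-subunits were the lowest set, from Ndufaf2 at 21.9 to Ndufaf4 at 3.46.

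To compare members among themselves, each log2(FPKM + 1) was set relative to the members' median in its library. The standard deviation (SD) of this relative level over 12 libraries was under 0.5 for 77 of 84 members, with a median of 0.21. It was lowest for Ndufv2, a core subunit of complex I, at 0.07, and for Uqcrc2, a core protein of complex III, at 0.08. The 7 members at or above 0.5 were Ndufa4l2 (1.67), Cox6b2 (1.51), Ndufa11 (0.68), Cox7a1 (0.67), Cox7a2l (0.57), Ndufb4 (0.56) and Ndufaf4 (0.54). The map of all tested members by library shows these as the genes that break the common shading of each column.

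**Figure D1:**
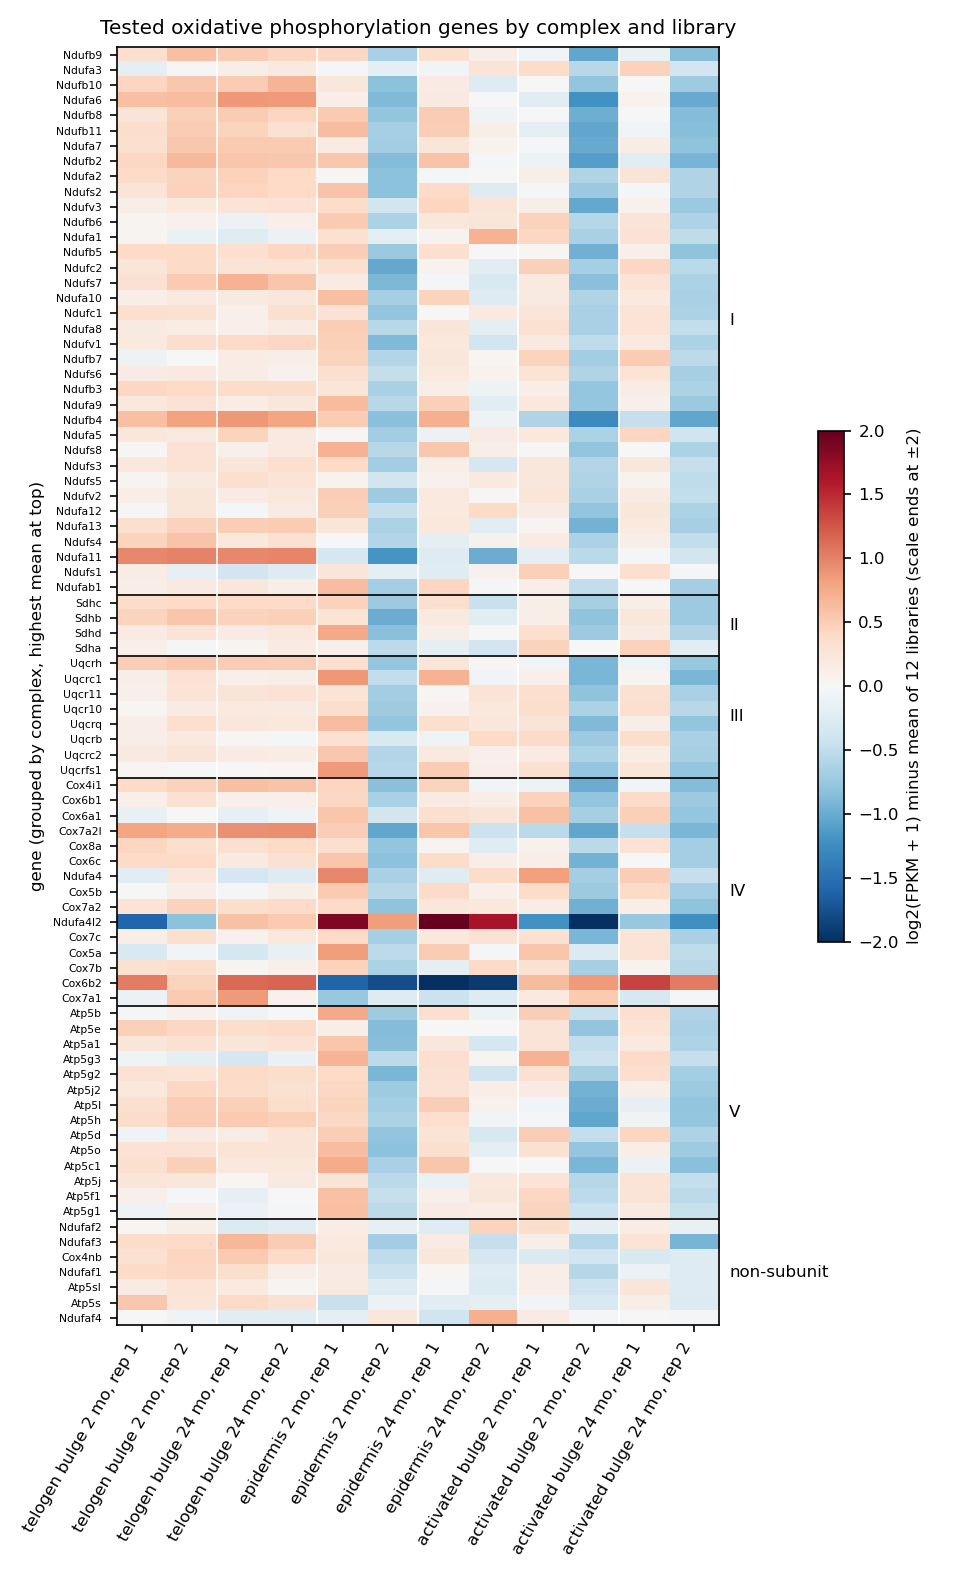
Colour gives log2(FPKM + 1) of each tested member minus its mean over 12 libraries (columns, 2 per group), grouped by complex with the highest mean at the top, on a scale that ends at 2 and -2. Most genes share the shade of their library, blue in replicate 2 of epidermis at 2 months and of activated bulge at both ages. Ndufa4l2, Cox6b2, Ndufa11, Cox7a2l and Ndufb4 depart from it, and Ndufb4 in epidermis overlaps both bulge populations.

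The levels fell apart by library within 3 groups. Replicate 2 of epidermis at 2 months summed to 8760 FPKM over the members, against 19518 in replicate 1. Replicate 2 of activated bulge summed to 8251 against 16167 at 2 months and to 8682 against 15685 at 24 months. The 4 telogen bulge libraries lay between 16467 and 17546, and the epidermis at 24 months at 17966 and 14317. In the 3 low libraries only 3, 2 and 2 of 84 members were higher in replicate 2 than in replicate 1, with median log2 differences of -1.08, -0.93 and -0.81. These 3 libraries covered 1242, 1769 and 1304 megabases.

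The low level was shared by other short transcripts. Over 12468 genes, the log2 difference of replicate 2 minus replicate 1 rose with transcript length, with a Spearman correlation across genes (which are not independent) of 0.53 in epidermis at 2 months, 0.54 in activated bulge at 2 months and 0.47 at 24 months. In the telogen bulge the correlation was -0.30 at 2 months and 0.10 at 24 months, and in epidermis at 24 months 0.23. Each member was therefore set beside the other tested genes whose longest transcript was within 20% of its own. Relative to their mean over 12 libraries, the members' median deviated by -0.66, -0.67 and -0.64 in the 3 low libraries, and that of the genes of like length by -0.61, -0.64 and -0.53. In the other 9 libraries these ranged from 0.01 to 0.41 and from -0.10 to 0.32.

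**Figure D2:**
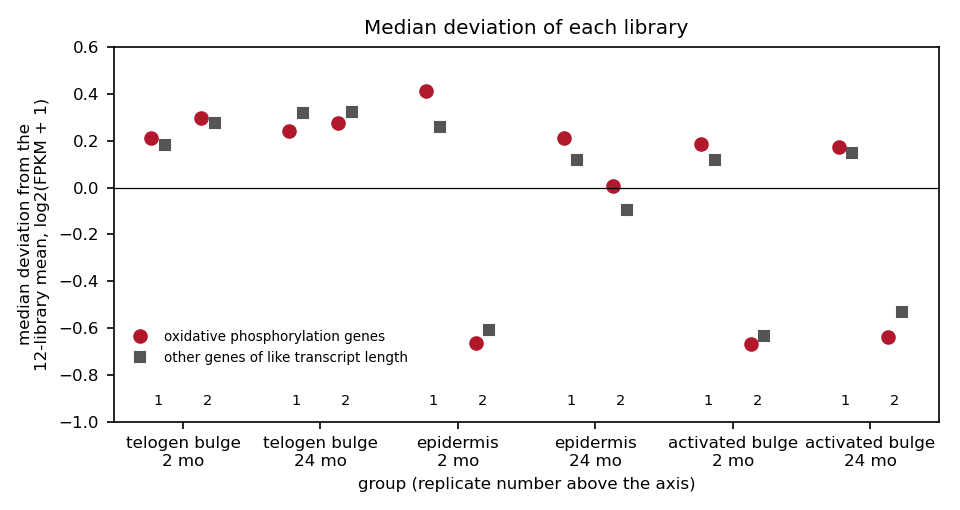
Points show, for each library, the median deviation of the 84 tested members (circles) and of other genes of like transcript length (squares) from the mean over 12 libraries in log2(FPKM + 1), by group and replicate. Members and genes of like length lie near -0.6 in 3 libraries and between -0.10 and 0.41 in the rest. In those 3 the members are somewhat lower (-0.66, -0.67 and -0.64 against -0.61, -0.64 and -0.53). In replicate 1 of epidermis at 2 months they are higher (0.41 against 0.26).

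Between telogen bulge and epidermis few members were called, and the median of the set stood with that of genes of like length. At 2 months the median log2 difference of the 84 members in telogen bulge minus epidermis was 0.40, with 73 above 0, beside 0.38 for genes of like length and 0.18 for all tested genes. Of the members 2 were called higher and 1 lower (limma, Benjamini-Hochberg). Of all tested genes 20.1% were called in either direction (13% higher and 7.15% lower). In this and the other comparisons of 2 groups the members' median standard error was 0.48, against 0.32 for all tested genes. A typical member thus needed a larger difference to be called, and the shares are not on equal terms. The median differences by complex were 0.48 for I, 0.38 for II, 0.26 for III, 0.42 for IV and 0.38 for V. Without the 3 low libraries the median was -0.12, beside 0.05 for all genes, and 6 members were called, against 22.1% of all genes.

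At 24 months the median was 0.13, with 55 of 84 above 0, beside 0.24 for genes of like length and 0.11 for all genes. Here 2 members were called higher and 0 lower, against 20.5% of all tested genes in either direction (12.8% higher and 7.74% lower), and 5 members had an unadjusted p under 0.05. Complexes I, II and V had medians of 0.24, 0.42 and 0.13, and complexes III and IV of -0.02 each. Without the 3 low libraries, none of which is in this comparison, 5 members were called against 29.3% of all genes.

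Cox6b2, the testis-type form of a complex IV subunit, was the member that differed most plainly between the populations. Its annotated span was chr7:4703396-4704696 on the minus strand of mm9, the build of the deposited files. It lay at 20.9 and 13.7 FPKM in telogen bulge at 2 months and at 22.5 and 23.2 at 24 months. In epidermis it lay at 2.57 and 2.15, then at 1.14 and 1.85. In activated bulge it lay at 15.6 and 18.5, then at 26.4 and 21.1. All 8 bulge libraries were thus above all 4 epidermal ones, and the 2 bulge populations overlapped.

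The log2 difference of telogen bulge minus epidermis for Cox6b2 was 2.42 (SE 0.26, adjusted p = 0.00015) at 2 months and 3.27 (SE 0.26, adjusted p = 2e-05) at 24 months by limma. That of activated bulge minus epidermis was 2.42 (adjusted p = 0.000255) and 3.32 (adjusted p = 3.4e-05). These comparisons share the epidermal libraries. All 4 calls held under the 22 other settings tried. Between activated and telogen bulge the difference was 0.01 and 0.04 (SE 0.26). Values are on the log2(FPKM + 1) scale, which understates the change of low genes.

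Ndufa11, an accessory membrane subunit of complex I (mm9 chr17:56857185-56863671, plus strand), was high in telogen bulge. It lay at 63.6, 65.4, 63.5 and 64.2 FPKM there, in the order replicates 1 and 2 at 2 months and then at 24 months. In epidermis it lay at 25.2, 13.6, 26.9 and 15.8, and in activated bulge at 27.97, 21.9, 31.7 and 24.8. The telogen bulge libraries were above all other 8 libraries. The difference of telogen bulge minus epidermis was 1.74 (SE 0.35, adjusted p = 0.00546) at 2 months and 1.58 (adjusted p = 0.00906) at 24 months by limma, and without the 3 low libraries 1.32 and 1.58, both called. The call at 24 months was lost in 3 of 22 other settings, without either telogen bulge library at 24 months or replicate 2 of epidermis at 24 months (adjusted p up to 0.0799).

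Ndufa4l2, a homologue of Ndufa4 that hypoxia is known to induce, went the other way (mm9 chr10:126951995-126954210, plus strand). In epidermis it lay at 458 and 223 FPKM at 2 months and at 1322 and 394 at 24 months. In telogen bulge it lay at 40.7 and 70.4, then at 188 and 181. In activated bulge it lay at 53.3 and 12.3, then at 73.7 and 52.6. At each age the epidermis was above both bulge populations with no overlap.

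The log2 difference of telogen bulge minus epidermis for Ndufa4l2 was -2.56 (SE 0.72, adjusted p = 0.0306 by limma) at 2 months. It was -1.96 at 24 months, which was not called (adjusted p = 0.0866). The call at 2 months was lost in 6 of 22 other settings (adjusted p up to 0.201): without the filter, without any 1 of the 4 telogen bulge libraries, and without replicate 1 of epidermis at 2 months. Without the 3 low libraries both ages were called, at -3.07 and -1.96 (adjusted p = 0.0287 and 0.049). Whether telogen bulge minus epidermis differed between the ages was tested for all members, and 0 were called (1 unadjusted p under 0.05). Of all 12468 tested genes 0 were called there too. The 16 exonic bases that Ndufa4l2 shares with Shmt2 on the other strand are few, but the labels do not say whether reads were counted by strand. Ndufa4l2 is known as a gene of pericytes. The 7 pericyte and smooth muscle markers summed to 15.5 to 25.8 FPKM in epidermis, 6.51 to 10.6 in telogen bulge and 9.22 to 42.4 in activated bulge. Acta2 lay at 7.75 to 14.4 FPKM in epidermis and 3.24 to 4.41 in telogen bulge, and Notch3 at 5.19 to 9.60 and 1.95 to 5.02. Rgs5 lay at 0 to 0.0919 FPKM and Des and Higd1b at 0 in the 4 epidermal libraries. The part of such cells in the level of Ndufa4l2 was not tested.

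Members that missed the threshold spread around the common shift. At 2 months the next highest difference of telogen bulge minus epidermis was 1.04 for Cox7a2l (adjusted p = 0.219 by limma), and the lowest beside Ndufa4l2 were -0.34 for Cox5a, a complex IV subunit, and -0.22 for Atp5g3, a gene for the c ring. At 24 months Cox7a2l stood at 0.86, Cox5a at -0.49 and Ndufa1, an accessory subunit of complex I, at -0.56. The dot plot of offsets from genes of like length shows the called genes at the ends, with some genes that were not called as far out, such as Ndufa4l2 at 24 months (-2.30).

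**Figure D3:**
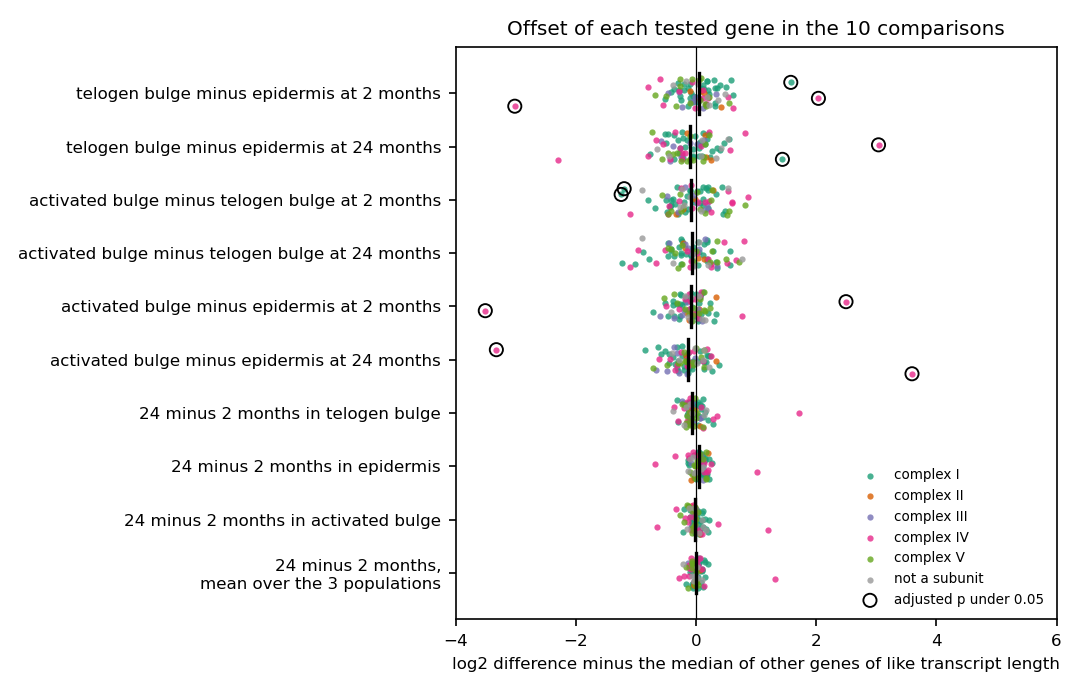
Each dot is a tested member in 1 of 10 comparisons, at its log2 difference minus the median of other tested genes of like transcript length, coloured by complex, with the median as a black bar and called genes (adjusted p under 0.05) ringed. The medians lie between -0.14 and 0.05, and Cox6b2 (2.04 to 3.59) and Ndufa4l2 (down to -3.51) lie farthest out.

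After depilation few members were called between activated and telogen bulge, and the median of the set stood with that of other short transcripts. At 2 months the median log2 difference was -0.52, with 74 of 84 below 0, beside -0.51 for genes of like length and -0.07 for all tested genes. Of the members 0 were called higher and 2 lower, against 12.8% of all tested genes in either direction (6.6% higher and 6.19% lower). At 24 months the median was -0.48, with 75 below 0, beside -0.47 for genes of like length and -0.10 for all genes. Here 0 members were called by limma, against 8% of all tested genes (4.11% higher and 3.9% lower). At an unadjusted p under 0.05 there were 5 members. The medians by complex lay between -0.54 and -0.42 at 2 months and between -0.55 and -0.33 at 24 months.

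This fall of the median went with the low libraries. Without replicate 2 of activated bulge at both ages and of epidermis at 2 months, the median was -0.04 at 2 months and -0.08 at 24 months, beside 0.02 and 0.05 for all genes. Then 1 member was called at 2 months, Ndufa6 (-0.83, adjusted p = 0.0408 by limma), against 12.7% of all genes, and 0 at 24 months, against 8.42%. The scale of the deposited values, inferred from the values, was not the same in all libraries. Relative to their geometric mean it was 0.751 to 0.862 in the 3 low libraries and 0.956 to 1.11 in the other 9. With each library divided by its own factor, a setting chosen after seeing the data, the medians were -0.40 and -0.25. Then 4 members were called lower at each age, Ndufa11, Ndufb4, Ndufa6 and Cox7a2l (-1.43 and -1.37), against 16.3% and 9.98% of all genes. The part of the Xist and Y-linked split in these differences was not tested.

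The 2 members called lower after activation at 2 months were Ndufa11 and Ndufb4, both accessory subunits of complex I. Ndufa11 differed by -1.35 (SE 0.35, adjusted p = 0.0318 by limma) at 2 months and by -1.16 (adjusted p = 0.0718) at 24 months. Ndufb4 (mm9 chr16:37647688-37654454, minus strand) lay at 117 and 136 FPKM in telogen bulge and at 50.7 and 31.2 in activated bulge at 2 months, and at 142 and 134 against 55.5 and 37.0 at 24 months. In epidermis it lay at 110, 42.9, 127 and 71.5. The activated libraries were thus below all telogen bulge libraries, with epidermis overlapping both.

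For Ndufb4 the difference of activated minus telogen bulge was -1.64 (SE 0.47, adjusted p = 0.0487 by limma) at 2 months and -1.58 (adjusted p = 0.0716) at 24 months. The call at 2 months was lost in 12 of 22 other settings, and that of Ndufa11 in 8. Without the 3 low libraries they stood at -1.30 (adjusted p = 0.0667) and -1.18 (adjusted p = 0.0671). Cox7a2l, of which C57BL/6 mice are known to carry a shortened protein, stood at -1.56 (adjusted p = 0.083) and -1.60 (adjusted p = 0.094). It lay at 600 to 682 FPKM in telogen bulge and at 173 to 261 in activated bulge.

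The highest differences of activated minus telogen bulge at 2 months were 0.32 for Cox5a, 0.28 for Atp5g3 and 0.24 for Ndufs1, an iron-sulphur core subunit of complex I. At 24 months they were 0.45 for Ndufs1, 0.31 for Ndufa4 and 0.25 for the assembly factor Ndufaf2, and Ndufa4l2 stood at -1.55. None was called in this fit. With the trend along transcript length removed from each library, Cox5a (0.81) and Atp5g3 (0.77) were called higher at 2 months. The other members called at 2 months in that setting were lower. The share of all tested genes called in that setting is not given.

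**Figure D4:**
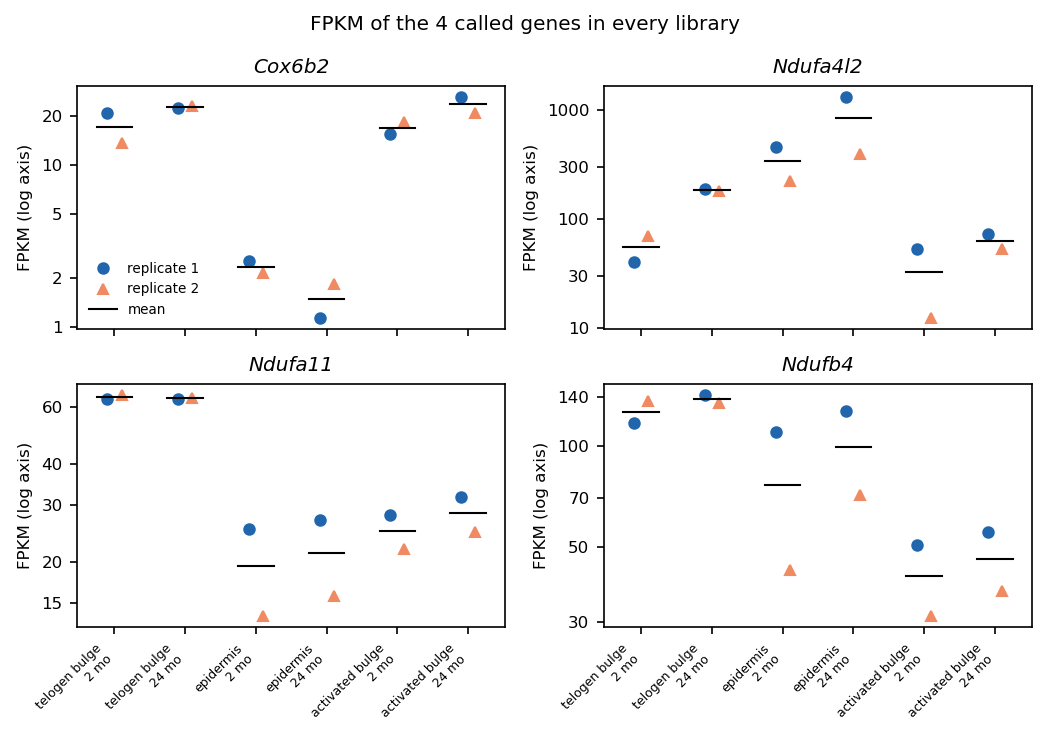
FPKM on log axes of the 4 members called in any comparison, by group, with a symbol for each replicate and a line at the mean of 2 libraries. Cox6b2 is above 13 FPKM in all bulge libraries and below 3 in epidermis, Ndufa4l2 is highest in epidermis at each age, Ndufa11 is highest in telogen bulge (63.5 to 65.4), and Ndufb4 is lower in activated than in telogen bulge.

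Set against epidermis, the activated bulge had 59 of 84 members below 0 at 2 months and 76 at 24 months. The median was -0.11 at 2 months and -0.31 at 24 months, beside -0.07 and -0.21 for genes of like length and 0.12 and 0.04 for all genes. At 24 months 22 of 84 members stood above their genes of like length, with a median offset of -0.14, and without the 3 low libraries the median difference was 0.06. At each age Cox6b2 was called higher and Ndufa4l2 lower, 2 of 84 members against 12.7% and 12.6% of all tested genes. By direction, 9.12% and 8.41% of all genes were higher and 3.54% and 4.19% lower. Ndufa4l2 differed by -3.58 (SE 0.72, adjusted p = 0.00877 by limma) at 2 months and by -3.51 (adjusted p = 0.00926) at 24 months. Its call at 2 months was lost in 3 of 22 other settings and that at 24 months in 2, each with libraries left out. Over the 22 settings the difference ranged from -4.60 to -2.56 at 2 months and from -4.38 to -2.64 at 24 months. Without the 3 low libraries 1 member was called at 2 months, against 8.57% of all genes, and 2 at 24 months, against 14.6%, and the call of Ndufa4l2 at 2 months was lost (-3.08, adjusted p = 0.0793 by limma). Other values at 2 months were 0.44 for Sdha, 0.39 for Ndufa11, -0.78 for Ndufb4 and -0.60 for Ndufb11, an accessory subunit of complex I. At 24 months they were 0.39, 0.43, -1.06 and, for the accessory subunit Ndufb2, -0.84.

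With every library centred on the members' median, more members were called in telogen bulge minus epidermis and in activated minus telogen bulge. In activated bulge minus epidermis the calls stayed the same. This setting was chosen after seeing the data. The counts are small, stand beside the share of all genes called in the same setting, and are no result about the set as a whole. In telogen bulge minus epidermis 5 members were called at each age, against 8.77% and 9.5% of all genes. Cox6b2, Ndufa11, Ndufa4l2 and Ndufa6 (0.74 and 0.68) were called at both ages, Atp5e (0.58) at 2 months and Ndufs7, a core subunit of complex I (0.70), at 24 months. In activated minus telogen bulge 6 members were called at 2 months and 2 at 24 months, against 5.63% and 3.49% of all genes. Ndufa6 (-0.94 and -0.89) and Ndufb4 (-1.26 and -1.14) were called at both ages. At 2 months Cox7a2l (-1.18), Uqcrh (-0.64) and Ndufb9 (-0.63) were also lower and Atp5g3 (0.66) was higher. The call of Ndufa11 at 2 months was lost (-0.97, adjusted p = 0.115 by limma). In activated bulge minus epidermis the calls were Cox6b2 and Ndufa4l2 at both ages, against 5.6% and 6.3% of all genes.

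Ndufa6 shows the pattern in its own values. It lay at 307, 309, 369 and 364 FPKM in telogen bulge, at 222, 109, 227 and 201 in epidermis and at 173, 86.8, 211 and 99.4 in activated bulge. The telogen bulge libraries were above the other 8. Relative to the members' median its mean was 1.19 and 1.37 in telogen bulge, 0.45 and 0.69 in epidermis and 0.25 and 0.48 in activated bulge at 2 and 24 months.

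With age no member was called in any population. The median log2 difference of 24 minus 2 months was -0.01 in telogen bulge, 0.21 in epidermis and 0.04 in activated bulge, beside 0.05, 0.19 and 0.07 for genes of like length. In each of these comparisons limma called 0 of 84 members and 0% of all tested genes, with 1, 0 and 0 members at an unadjusted p under 0.05. The mean over the 3 populations had a median of 0.09, beside 0.11 for genes of like length, with 0 calls and 1 unadjusted p under 0.05. The members' median standard error was 0.48 for each population and 0.27 for the mean. The spread is shared by all 6 groups, so the 3 low libraries enter it for telogen bulge too. There the members' median difference between replicates was 0.10 at 2 months and 0.02 at 24 months. Changes of the order of the standard errors could not be detected, and larger ones could be missed as well. A difference of 1.76, that of Ndufa4l2 in telogen bulge, was not called. In epidermis 79 of 84 members were above 0, but the median was -0.29 without the 3 low libraries, of which replicate 2 at 2 months is in this comparison.

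Ndufa4l2 had the highest age difference in each population, 1.76 in telogen bulge, 1.17 in epidermis and 1.24 in activated bulge. Without the 3 low libraries its difference was 1.76, 0.65 and 0.46, and 0.96 as the mean over the populations. In activated bulge Cox6b2 (0.72) was then above it. The ages did not overlap in telogen bulge (40.7 and 70.4 against 188 and 181 FPKM). They overlapped in epidermis, where 394 FPKM at 24 months was below 458 at 2 months, and in activated bulge, where 52.6 was below 53.3. Averaged over the populations the difference was 1.39 (SE 0.42), with an unadjusted p of 0.00747 and an adjusted p of 1 by limma, so it did not pass the test. Whether effects of population differed with age was tested in 3 contrasts. In each, 0 of 84 members were called, with 1, 0 and 1 at an unadjusted p under 0.05. Of all 12468 tested genes 0 were called as well, so these contrasts cannot show that the effects were alike at both ages. In the contrasts against epidermis the smallest p was that of Cox6b2, whose excess differed between the ages by 0.86 in telogen bulge and 0.89 in activated bulge (SE 0.37, adjusted p = 1 for both).

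The other ends of the age differences were small. In telogen bulge they were 0.41 for Cox6b2 and 0.25 for Ndufa6, and -0.32 for Ndufaf2, -0.31 for Ndufs1 and -0.30 for Ndufa4. In epidermis they were 0.47 for Ndufb4, 0.46 for Ndufa6, -0.44 for Cox6b2 and -0.11 each for Atp5sl and Ndufs1. In activated bulge they were 0.45 for Cox6b2, 0.24 for Ndufa6, -0.25 for Cox5a, -0.18 for Atp5g3 and -0.16 for Atp5b. In the mean over populations they were 0.32 for Ndufa6, 0.26 for Ndufb4, -0.17 for Ndufs1, -0.15 for Ndufa4 and -0.09 for Ndufaf2.

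Several subunits are encoded by alternate genes, and their shares of the summed FPKM were described within each family without a test. The common forms prevailed: Cox4i1, Cox6a1, Cox7b and Cox8a made up at least 99.96% of their families in every library. Cox4i2, the lung form, was at 0 to 0.223 FPKM, Cox6a2 and Cox8b, the heart and muscle forms, at 0 to 0.0670 and 0 to 0.162, Cox8c at 0 to 0.0945 and Cox7b2 at 0. These were the 5 members that did not pass the filter. Cox7a1, the muscle form in the family of Cox7a2, took at most 0.704%. Of 10 skeletal muscle markers 8 were under 1 FPKM in both libraries of every group.

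Of the alternate genes that were expressed, Cox6b2 took 2.75% to 8.16% of the Cox6b1 and Cox6b2 sum in bulge libraries and 0.257% to 0.855% in epidermis. Ndufa4l2 took 17.3% and 20.8% of the sum with Ndufa4 in telogen bulge at 2 months, and 51.0% and 48.8% at 24 months. In epidermis it took 50.9% to 87.3%, and in activated bulge 7.93% to 24.2%. Thus the share in aged telogen bulge lay above that in young telogen bulge and, except for 1 epidermal library at 50.9%, below the epidermis.

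The c ring of ATP synthase is built from 1 mature protein that 3 genes encode with different import signals. Atp5g2 made up 48.2% to 53.3% of their sum in telogen bulge and 33.8% to 41.8% in the other 8 libraries. Atp5g3 made up 35.8% to 41.1% in telogen bulge and 47.2% to 52.5% elsewhere, and Atp5g1 10.8% to 14.5% throughout. The telogen bulge did not overlap the other populations in either of the first 2 shares. Cox7a2l made up 72.2% to 76.1% of the Cox7a2, Cox7a1 and Cox7a2l sum in telogen bulge, 58.0% to 73.0% in epidermis and 57.2% to 66.7% in activated bulge.

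**Figure D5:**
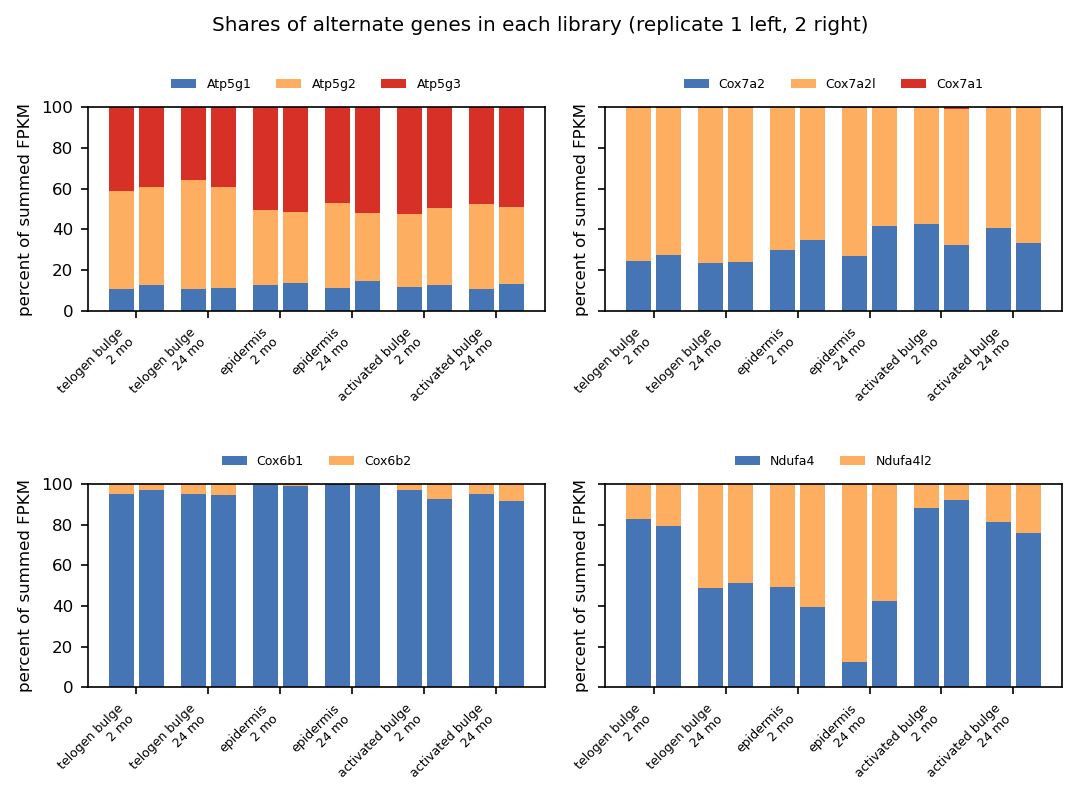
Stacked bars give each alternate gene's percent of the summed FPKM of its family in every library, replicate 1 left and replicate 2 right within a group. Atp5g2 is near 50% in telogen bulge and at 33.8% to 41.8% elsewhere, Cox6b2 is seen in bulge libraries, and Ndufa4l2 takes most in epidermis.

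Calls among genes that serve the respiratory chain without being subunits are given beside the share of all tested genes called. None of 17 tested genes of the citric acid cycle and pyruvate dehydrogenase and none of 76 mitochondrial ribosomal proteins was called by limma in any comparison. Between populations 8% to 20.5% of all tested genes were called. At an unadjusted p under 0.05 there were 0 of the citric acid cycle and pyruvate dehydrogenase genes in any comparison. Of the mitochondrial ribosomal proteins there were 6 in activated minus telogen bulge at 2 months and 3 at 24 months. There was 1 in telogen bulge minus epidermis at 2 months and 0 elsewhere. None of 4 complex III and 4 complex V assembly factors was called either (0 at an unadjusted p under 0.05). Of 17 electron carriers and feeders, 2 were called higher and 1 lower in activated minus telogen bulge at 2 months, against 12.8% of all tested genes. In the other comparisons between populations 0 or 1 were called, against 8% to 20.5%. Gpd2, the mitochondrial glycerol phosphate dehydrogenase, was lower in telogen bulge than in epidermis (-1.36 at both ages, adjusted p = 0.00312 and 0.00305 by limma). It was higher after activation at 2 months (0.86). Prodh, proline dehydrogenase, was lower in activated than in telogen bulge at 2 months (-1.66) and than in epidermis at both ages (-1.87 and -1.51), and Pdss1, an enzyme of ubiquinone synthesis, was higher in activated than in telogen bulge at 2 months (1.43). Of the assembly factors, Tmem126b of complex I (-0.90, 1 of 6) and Surf1 of complex IV (-1.65, 1 of 13) were lower in activated than in telogen bulge at 2 months. Of all tested genes 12.8% were called there. Sdhaf1 of complex II (-1.64, 1 of 3) was lower at 24 months, against 8% of all genes. Higd1a, a complex IV assembly and hypoxia-induced protein, was lower in activated bulge than in epidermis (-1.34 and -1.91). It was 1 of 13 at each age, against 12.7% and 12.6% of all genes.

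Of 17 regulators of mitochondrial biogenesis, 3 were higher and 2 lower in telogen bulge than in epidermis at 2 months, and 1 and 2 at 24 months, beside 20.1% and 20.5% of all tested genes called. Pprc1, a coactivator of the PGC-1 family, lay at 2.86 to 4.55 FPKM in telogen bulge, 8.52 to 12.3 in epidermis and 10.2 to 19.6 in activated bulge. Its difference was -1.43 and -1.16 in telogen bulge minus epidermis and 1.95 and 1.11 in activated minus telogen bulge, all called by limma. Polg2, the accessory subunit of the mitochondrial DNA polymerase, was called in the opposite direction in the same 4 comparisons (1.07, 1.32, -1.18 and -1.22). Of 11 mitochondrial carriers and porins, Ucp2, an uncoupling protein homologue, was called higher in activated than in telogen bulge (2.29 and 2.11). It lay at 38.9 to 60.5 FPKM in telogen bulge and at 176 to 307 in activated bulge. Of all tested genes 12.8% and 8% were called in that comparison at 2 and 24 months. With age limma called 0 genes of these lists, and 0 to 1 of each had an unadjusted p under 0.05 in any age comparison.

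Ribosomal protein genes, also short, had medians of the same sign as the subunits. The 80 tested cytosolic ribosomal proteins had medians of 0.58 and 0.31 in telogen bulge minus epidermis and -0.94 and -0.89 in activated minus telogen bulge, and the 76 mitochondrial ones 0.32 and 0.18, then -0.46 and -0.52. In activated minus telogen bulge 1 ribosomal protein was called, Rpl17 at 2 months (-2.98), against 12.8% of all tested genes. At 24 months Rps4y2 was called higher in telogen bulge (1.92) and in activated bulge (2.69) than in epidermis. Of all tested genes 20.5% and 12.6% were called in these 2 comparisons. The 38 proteasome subunits had medians of 0.22 and -0.01, then -0.21 and -0.30. Psmb9, an immunoproteasome subunit, was their only call between telogen bulge and epidermis (-1.40 and -1.36), against 20.1% and 20.5% of all tested genes. It was also called lower in activated bulge than in epidermis at 24 months (-1.45), against 12.6%.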

How the data were processed

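RNA from flow-sorted cells was sequenced with a TruSeq mRNA kit, per the labels' protocols. TopHat alignments to mm9 were quantified by Cufflinks, per the submitters' processing notes. Versions are not given in the sources used here. The authors deposited FPKM for the same 28018 transcripts in 12 libraries, held as attributes of transcript files. Deposited values exceeded ordinary FPKM by a factor inferred from the values, and all were divided by its geometric mean, 16679.9, which changes no ratio. The factor was 0.751 to 1.11 of that mean, lowest in the 3 libraries with low members, and these differences were kept. The 2 wounded libraries were not used here.

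FPKM were summed per gene, genes with at least 1 FPKM in at least 2 libraries and a transcript of at least 300 nt were kept, and Krt5, Krt14 and other genes listed at 0 beside values above 1000 FPKM were left out. The log2(FPKM + 1) values went into limma 3.58.1 (R 4.3.3; eBayes with trend, 1 mean per group over 12 libraries, two-sided), which was tested on simulated data. Adjusted p-values are Benjamini-Hochberg over 12468 genes within a comparison. Many of these genes have processed pseudogenes, and how their reads were divided is not given in the sources used here. Depth per gene is unknown beyond coverage, so no interval is given. Of the members, 9 share exonic bases with another gene.

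The members and lists were chosen with earlier results of these data known. Named genes are those called in a comparison, otherwise the 3 highest and 3 lowest differences among members with a mean of at least 5 FPKM, the highest and lowest of each complex, the alternate genes, and up to 4 called genes per pathway list. Genes shown for relative level, promoter or share were chosen after seeing values. Lists were the electron carriers, assembly factors, citric acid cycle, carriers, biogenesis regulators, mitochondrial and cytosolic ribosomal proteins, proteasome subunits and cell type markers. Alternatives covered pseudocount, filter, normalization, transcript choice, length trend, length window, replicate block, centring, a scale factor per library, and libraries left out.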

Additional observations from a re-analysis of the deposited data

How the results depend on the processing

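Over the 10 comparisons, 397 of 460 alternative values stayed within 1.5 times the count of called members, or within 1 SD between replicates of the members' median offset from genes of like length. No alternative called a member with age. The other 63 follow, and the cause was not tested for any of them. The share of all tested genes called is given above only for centring, the scale factor per library and the fit without the low libraries. It is not given for quantile normalization, the length trend, the blocks, single libraries left out or the remaining settings. Counts of called members there cannot show whether a change belongs to the members.

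Counts of called members in telogen bulge minus epidermis, at 2 and 24 months, were 9 and 5 with quantile normalization, 6 and 7 with the length trend removed, 5 and 5 centred on the members' median, and 6 and 5 without the 3 low libraries. For activated minus telogen bulge at 2 months the count was 1 with a pseudocount of 0.1, 1 without the filter, 1 with the main transcript alone, 13 with quantile normalization, 9 with the length trend removed, 6 centred, 4 with each library divided by its own scale factor and 1 without the 3 low libraries. At 24 months it was 6, 4, 2 and 4 with quantile normalization, the length trend removed, centring and the factor per library. For activated bulge minus epidermis at 2 months it was 1 without the 3 low libraries.

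Leaving out each library in turn gave 2 to 4 and 1 to 3 called members in telogen bulge minus epidermis at 2 and 24 months, 0 to 3 at both ages in activated minus telogen bulge, and 1 to 2 at both ages in activated bulge minus epidermis. The offset then ranged from -0.12 to 0.19 and -0.11 to -0.09, from -0.13 to 0.02 and -0.10 to 0.04, and from -0.22 to 0.0694 and -0.25 to -0.0563. In epidermis with age it ranged from -0.12 to 0.18. The lone library of an arm is assumed to vary like the others.

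Without the filter the offset was 0.29 and 0.10 in telogen bulge minus epidermis, -0.44 and -0.43 in activated minus telogen bulge, -0.29 in activated bulge minus epidermis at 24 months and 0.16 with age in epidermis. With quantile normalization it was 0.10 in activated minus telogen bulge and 0.0624 in activated bulge minus epidermis at 24 months. Beside genes like in length and level it was 0.0270 and 0.0527 in activated minus telogen bulge and 0.0095 in activated bulge minus epidermis at 24 months. Without the 3 low libraries it was -0.12 in telogen bulge minus epidermis at 2 months and -0.12 with age in epidermis.

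The labels number libraries 1 and 2 in each group. Same-numbered libraries did not deviate together throughout (correlations of 0.18 to 0.79 among the epidermis and activated bulge groups, and of -0.58 to 0.11 where a telogen bulge group was involved), so the numbers were not taken as pairs. A replicate block gave 4 called members at each age in activated minus telogen bulge. The crossed block, added after seeing the data, gave 7 at each age there.

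With 2 libraries per group, library differences that follow transcript length in 3 of 12 libraries and a median standard error of 0.48, small common shifts of these short transcripts could not be resolved.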
